A study of Mus musculus with 9 samples.

Results

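Chromatin accessibility is described here around 5 genes that encode transcription regulators of plasma cells, Prdm1, Irf4, Xbp1, Ell2 and Creb3l2. Their peaks are the regions of open chromatin that overlap the RefSeq body of the gene, together with those that overlap no protein-coding gene and have it as the nearest such body within 100 kb. This gave 60 of the 61540 peaks of the deposited table, with 22 at Prdm1, 15 at Irf4, 9 at Xbp1, 8 at Ell2 and 6 at Creb3l2. Of the 60, 30 lay in a gene body and 30 outside. A peak's gene is a label of position only.

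The cells were age-associated B cells, a subset that expands with age and in lupus, isolated from MRL/lpr spleens at 20 weeks of age by antibody staining and flow sorting. Each mouse was a chimera made with bone marrow of 3 genotypes, and all groups carry the Fas mutation lpr of the strain. The groups were TLR9-/- (KO), TLR9 P915H/P915H (P915H), whose receptor the submitters describe as non-signaling, and intact TLR9 (WT), with 3 samples each. The labels give neither the recipients' genotype nor which samples shared a mouse. They do not say that replicates are separate animals, so each p-value reflects only how far these samples spread, and that spread may be technical. In a bulk sample, a change in the share of cells with an open site and a change in openness per cell cannot be told apart. Values are log2 of a number scaled as CPM (read counts scaled to a common total) over all peaks. Their depth is unknown, and an effect of the replicate number had been removed from each peak before deposit. The SDs printed here therefore do not hold the full spread between samples. At each peak the samples of a replicate number are tied to the same mean, so a high value in a genotype goes with lower values in the others. Removing that effect can also draw genotypes apart, which bears on every statement here that groups did not overlap.

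A B cell becomes a plasma cell when a repressive B cell programme gives way to a secretory one. Irf4 encodes a factor that at high level induces Prdm1, whose product Blimp-1 silences B cell identity genes. Xbp1 encodes the factor of the unfolded protein response that enlarges the secretory apparatus, and Creb3l2 a related factor held in the membrane of the endoplasmic reticulum until it is cleaved. Ell2 encodes a transcription elongation factor that favours the secreted form of the immunoglobulin heavy chain mRNA. Age-associated B cells respond to endosomal Toll-like receptors and can give rise to antibody-secreting cells.

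The labelled cell type was checked against marker genes. All 4 age-associated B cell markers (Itgax, Tbx21, Fcrl5 and Zeb2) had peaks, whose antilogged values summed to 530 to 554 in KO, 514 to 555 in P915H and 544 to 567 in WT. Among plasma cell markers, Tnfrsf17 had no peak, Jchain had 1 and Sdc1, which encodes CD138, had 9. Summed over the 10 plasma cell peaks, the antilogged values were 44.7 to 58.2 in KO, 39 to 50.4 in WT and 33.9 to 41.1 in P915H. The T cell genes Cd4 and Cd8a had no peak, while 3 peaks of Cd3e and Cd3g summed to 12.3 to 12.5 in KO and 4.68 to 8.32 in P915H. Of the macrophage and monocyte markers, Lyz2 had no peak, and 3 peaks of Csf1r and Cd14 summed to 27.8 to 35.3 in KO and 41.6 to 46.5 in P915H. In WT the T cell sums were 7.09 to 9.76, and the macrophage and monocyte sums 36.3 to 43. The plasma cell, T cell, and macrophage and monocyte sums did not overlap between KO and P915H, while the age-associated B cell sums did. The part of these sums in the results below was not tested. Ncr1 and S100a8 had no peak, and the sums at Klrb1c (197 to 204 in KO, 198 to 211 in P915H) and Ly6g (9.14 to 12.1 and 9.92 to 11.6) overlapped between the genotypes.

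Of the 5 genes, 4 had a peak that reached into the 250 bases upstream of the RefSeq start. Their upstream sequences are shown because no peak at a start passed the test in any comparison, while some sites farther away did. This count has no like background, since the share over the starts of all genes was not computed. The sequences shown are from RefSeq build GRCm38.p6, the assembly of mm10, written 5′ to 3′ in the direction of the gene up to the base before the start. Capitals mark a match to one of 8 searched motifs.
Prdm1: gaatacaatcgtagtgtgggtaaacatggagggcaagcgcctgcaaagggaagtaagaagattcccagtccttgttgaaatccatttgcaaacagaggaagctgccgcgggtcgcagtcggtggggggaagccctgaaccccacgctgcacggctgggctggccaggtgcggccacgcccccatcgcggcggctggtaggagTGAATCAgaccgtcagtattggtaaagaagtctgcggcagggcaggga
Irf4: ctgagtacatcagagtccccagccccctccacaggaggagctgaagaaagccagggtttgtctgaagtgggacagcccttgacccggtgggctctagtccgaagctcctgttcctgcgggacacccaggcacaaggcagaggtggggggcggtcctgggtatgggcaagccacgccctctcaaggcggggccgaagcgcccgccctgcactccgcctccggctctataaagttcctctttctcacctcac
Ell2: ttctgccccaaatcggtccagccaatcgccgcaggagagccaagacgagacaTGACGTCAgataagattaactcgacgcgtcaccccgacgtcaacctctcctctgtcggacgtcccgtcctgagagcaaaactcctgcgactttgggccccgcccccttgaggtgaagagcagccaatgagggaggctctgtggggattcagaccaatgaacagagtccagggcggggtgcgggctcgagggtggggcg
Creb3l2: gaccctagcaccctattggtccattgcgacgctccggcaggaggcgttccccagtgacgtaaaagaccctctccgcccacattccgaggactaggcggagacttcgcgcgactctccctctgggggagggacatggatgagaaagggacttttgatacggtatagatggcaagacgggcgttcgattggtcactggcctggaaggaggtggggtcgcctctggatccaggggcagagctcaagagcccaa
The Prdm1 sequence is chr10:44458749-44458998 on the minus strand, Irf4 chr13:30748983-30749232 on the plus strand, Ell2 chr13:75707234-75707483 on the plus strand and Creb3l2 chr6:37442149-37442398 on the minus strand. Peaks covered 183 of the 250 bases at Prdm1, 118 at Irf4, 198 at Ell2 and 150 at Creb3l2. At Xbp1 no peak reached into them, and its nearest peak began 126 bp downstream of the start.

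The capitals at Prdm1, TGAATCA, match the AP-1 motif TGANTCA, 48 to 42 bases upstream of the start. The capitals at Ell2, TGACGTCA, are the palindromic cyclic AMP response element, 198 to 191 bases upstream. Among 32851 upstream windows of the same length, 6.75% held the first and 1.55% the second. No match was found in any of the 5 windows, on either strand, to the interferon-stimulated response element core (GAAA, any 2 bases, GAAA; 2.98% of all windows), the ETS and IRF composite (GGAA, any 2 bases, GAAA; 2.3%), the AP-1 and IRF composites (GAAA joined to the AP-1 motif, 0.1%, or TTTC, any 4 bases and the AP-1 motif, 0.0974%), the Blimp-1 core GTGAAAG (3.57%) or the unfolded protein response core ACGTGG (6.91%). The composite motifs contain or overlap the simpler ones, and a match is a description of letters only.

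The peak nearest the start of each gene was strong, and none passed limma's threshold of 0.05 (adjusted p) in any comparison. Over all genes, 13.2% of peaks with a mean from 4 to 5 passed for KO against P915H, and 6.32% of stronger ones. The share of start peaks passing over all genes was not computed, so no contrast with sites farther away is drawn. At Ell2 (chr13:75707286-75707496) the log2 values were 6.94, 6.96 and 6.96 in KO, 7.02, 6.94 and 6.85 in P915H and 6.90, 6.95 and 7.04 in WT. All 3 groups overlapped, and the difference of KO from P915H was 0.02 (95% interval -0.16 to 0.19). At Irf4 (chr13:30749115-30749326) the values were 5.49, 5.53 and 5.59 in KO, 5.51, 5.50 and 5.53 in P915H and 5.53, 5.50 and 5.42 in WT, with a difference of 0.02 (-0.18 to 0.23) between KO and P915H.

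At Xbp1 (chr11:5520767-5520968), in the gene just past its start, KO samples had 5.47, 5.46 and 5.40, P915H samples 5.30, 5.39 and 5.30 and WT samples 5.42, 5.35 and 5.50. KO lay above P915H in every sample, by 0.11 on average (95% interval -0.10 to 0.32, limma adjusted p = 0.503). At Creb3l2 (chr6:37442249-37442452) the values were 6.67, 6.69 and 6.66 in KO, 6.89, 6.81 and 6.69 in P915H and 6.71, 6.76 and 6.92 in WT. The difference of KO from P915H was -0.13 (-0.32 to 0.07, limma adjusted p = 0.382). Every KO sample lay below every P915H and WT sample, though the closest KO and P915H samples both round to 6.69.

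The Prdm1 start was the weakest of the 5 and the only one where both mutants lay above WT in every sample. Its peak (chr10:44458538-44458931) had 4.28, 4.29 and 4.45 in KO, 4.16, 4.15 and 4.42 in P915H and 4.01, 4.02 and 3.60 in WT. The difference from WT was 0.46 in KO (95% interval 0.12 to 0.81, limma adjusted p = 0.154) and 0.37 in P915H (0.02 to 0.71, limma adjusted p = 0.618), and neither passed the threshold. KO and P915H share the WT samples in these values. The strongest peak assigned to Prdm1 lay elsewhere, 875 bp outside the far 5′ end of its body (chr10:44529433-44529636), where the KO mean was 5.50 ± 0.04 (SD, n = 3), that of P915H 5.36 ± 0.14 and that of WT 5.29 ± 0.17. That end of the annotated body lies upstream of the start used here.

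**Figure D1:**
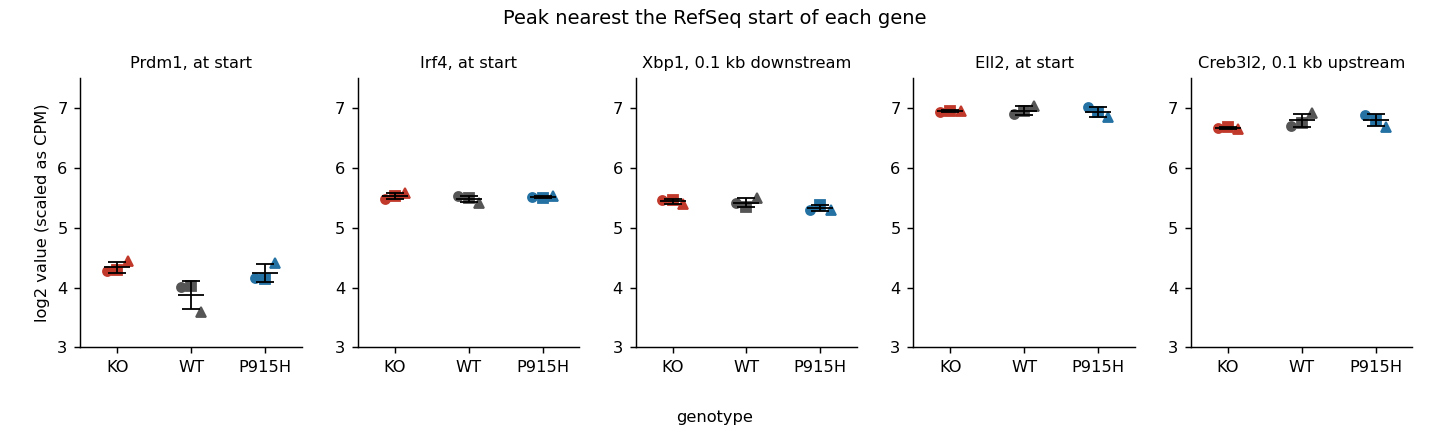
The log2 accessibility (scaled as CPM) of the peak nearest the RefSeq start of each gene is plotted by genotype. Circles, squares and triangles are replicates 1, 2 and 3, and bars show the mean and SD. Genotypes sit at nearly one level at Irf4, Xbp1, Ell2 and Creb3l2, while the WT samples of Prdm1, from 3.60 to 4.02, lie below those of both mutants.

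Setting KO beside P915H addresses whether losing the receptor and keeping a non-signaling one leave the same chromatin. Of all 61540 peaks, 15.5% passed the threshold, with 6.55% higher and 8.97% lower in KO. Of the 60 peaks of the 5 genes, 9 passed (15%), a share near that background. Of these 9, 8 were higher in KO and 1 was lower. At an unadjusted p under 0.05 there were 15, 9 of them higher, against 29% of all peaks. The median log2 difference was 0.13 over the 60 peaks and -0.01 over all peaks.

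The 9 were weaker sites. Their mean log2 values ran from 1.66 to 3.81, and none of the 13 member peaks with a mean of 4 or more passed by limma, 2 of them having an unadjusted p under 0.05. Over all genes, 22.2% of peaks with a mean under 2 passed, 15.6% from 2 to 3 and 16.4% from 3 to 4. The share was 13.2% from 4 to 5 and 6.32% of stronger ones, so strong sites passed less often in the whole table too. Member peaks gave 3 of 11 under 2, 5 of 24 from 2 to 3 and 1 of 12 from 3 to 4. At all 9 the WT mean lay between those of KO and P915H, as it did at 28 of the 60. The 9 were picked for a difference between KO and P915H, which leaves room for WT between them. The share over all peaks was not computed, so no conclusion is drawn from these counts. Leaving out KO replicate 2 or 3 brought the count of 9 to 4 or 5, as the share of all peaks called fell to 6.2% or 5.8%. Leaving out P915H replicate 2 or 3 brought it to 3 or 4, with 5.24% or 7.69% of all peaks.

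**Figure D2:**
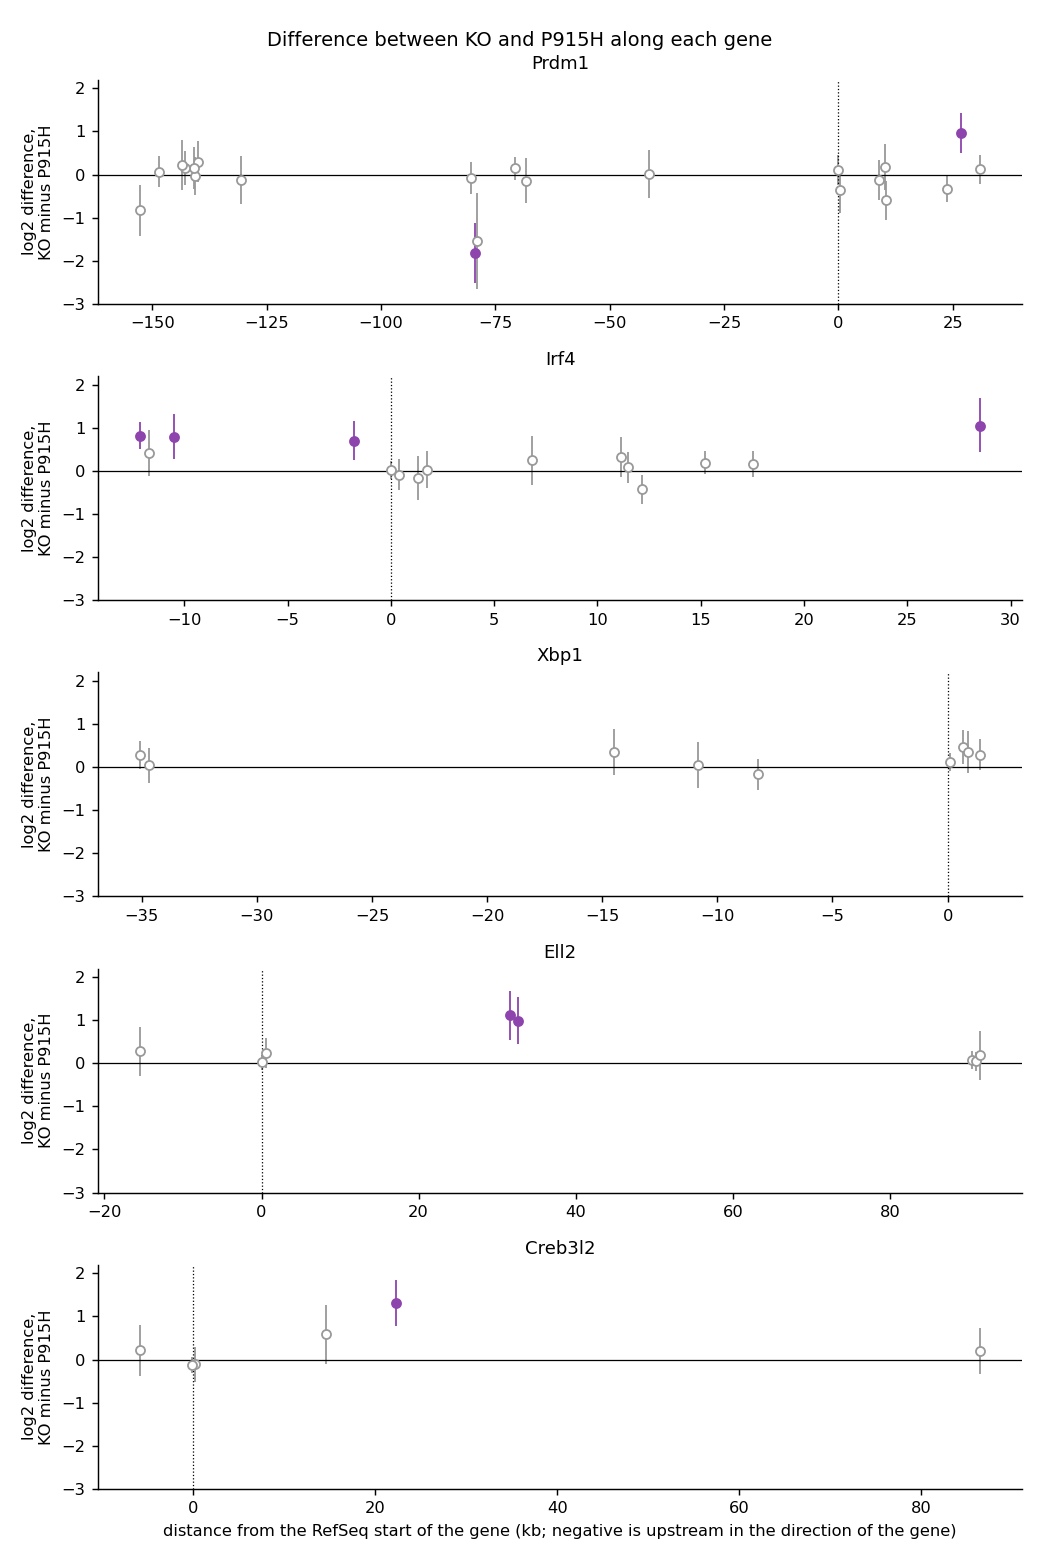
The difference in log2 accessibility between KO and P915H is plotted for each peak against its distance from the RefSeq start of the gene in kb (negative is upstream). Vertical bars are 95% intervals, and filled points passed limma's test. The points at the starts lie near 0, and the 9 filled points lie away from them, with 1 below 0, at Prdm1.

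Irf4, the factor at the head of the programme, had 4 peaks more accessible in KO than in P915H, all outside its body. They were 4 of its 5 peaks outside the body, and of its 10 peaks inside none passed by limma, with 1 at an unadjusted p under 0.05. These counts have no like background, since the shares of all peaks inside and outside bodies were not computed. Wherever they lay, 15.5% of all peaks passed. The strongest of the 4 Irf4 peaks (chr13:30736653-30737075, 12158 bp upstream of the start) had 4.23, 4.42 and 4.18 in KO, 3.42, 3.50 and 3.47 in P915H and 3.78, 3.51 and 3.78 in WT. The 3 genotypes did not overlap, with KO highest and P915H lowest. KO exceeded P915H by 1.76-fold (log2 0.81, SE 0.14, limma adjusted p = 0.00563), and the call held without each of the 9 samples in turn. At this peak KO differed from WT by 0.58 (limma adjusted p = 0.0771) and P915H from WT by -0.23 (limma adjusted p = 0.745).

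A second upstream peak (chr13:30738374-30738726, 10507 bp from the start) had 2.85, 3.26 and 2.51 in KO, 2.02, 1.93 and 2.30 in P915H and 2.53, 2.21 and 2.59 in WT. KO was above P915H in all samples while WT overlapped both, and the log2 difference of KO from P915H was 0.79 (SE 0.23, limma adjusted p = 0.0472). Between these lay a peak at 11726 bp that did not pass (0.42, limma adjusted p = 0.281). Closer to the gene, 1769 bp upstream (chr13:30747234-30747464), the values were 2.45, 2.95 and 2.58 in KO, 2.05, 1.90 and 1.93 in P915H and 2.63, 2.28 and 2.62 in WT. There P915H stood alone below the other genotypes, which overlapped, and KO exceeded P915H by 0.70 (SE 0.21, limma adjusted p = 0.0465).

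The fourth peak lay past the other end of Irf4, 10791 bp outside the body (chr13:30777772-30778021). It had 1.95, 2.30 and 2.29 in KO, 1.46, 1.22 and 0.70 in P915H and 1.74, 1.63 and 2.16 in WT, again with P915H alone at the low end. The log2 difference of KO from P915H was 1.05 (SE 0.28, limma adjusted p = 0.0311). Each of the last 3 calls was lost when some samples were left out. The peak at 10507 bp had a limma adjusted p of 0.0953 without KO replicate 1, 0.234 without KO replicate 2 (where the difference was 0.50), 0.145, 0.209 and 0.0603 without P915H replicates 1, 2 and 3, and 0.0685 without WT replicate 1. The peak at 1769 bp had 0.224 without KO replicate 2, 0.114 without KO replicate 3, 0.0943, 0.177 and 0.136 without P915H replicates 1, 2 and 3, and 0.066 without WT replicate 1. The peak past the gene had 0.138 and 0.136 without KO replicates 2 and 3, and 0.0968 and 0.138 without P915H replicates 2 and 3.

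Inside Irf4 the differences of KO from P915H ran from -0.43 to 0.33. The lowest belonged to a strong peak (chr13:30761407-30761618) with an adjusted p of 0.0793 by limma, which is opposite in sign to the upstream peaks. It passed at an adjusted threshold of 0.1, with 22% of all peaks. In other fits 1 Irf4 peak passed as lower in KO: without the replicate term, with sample weights and with only the 2 genotypes. The same held without KO replicate 1 and without WT replicate 3. Of all peaks, 15.4% to 27.7% passed in these fits.

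**Figure D3:**
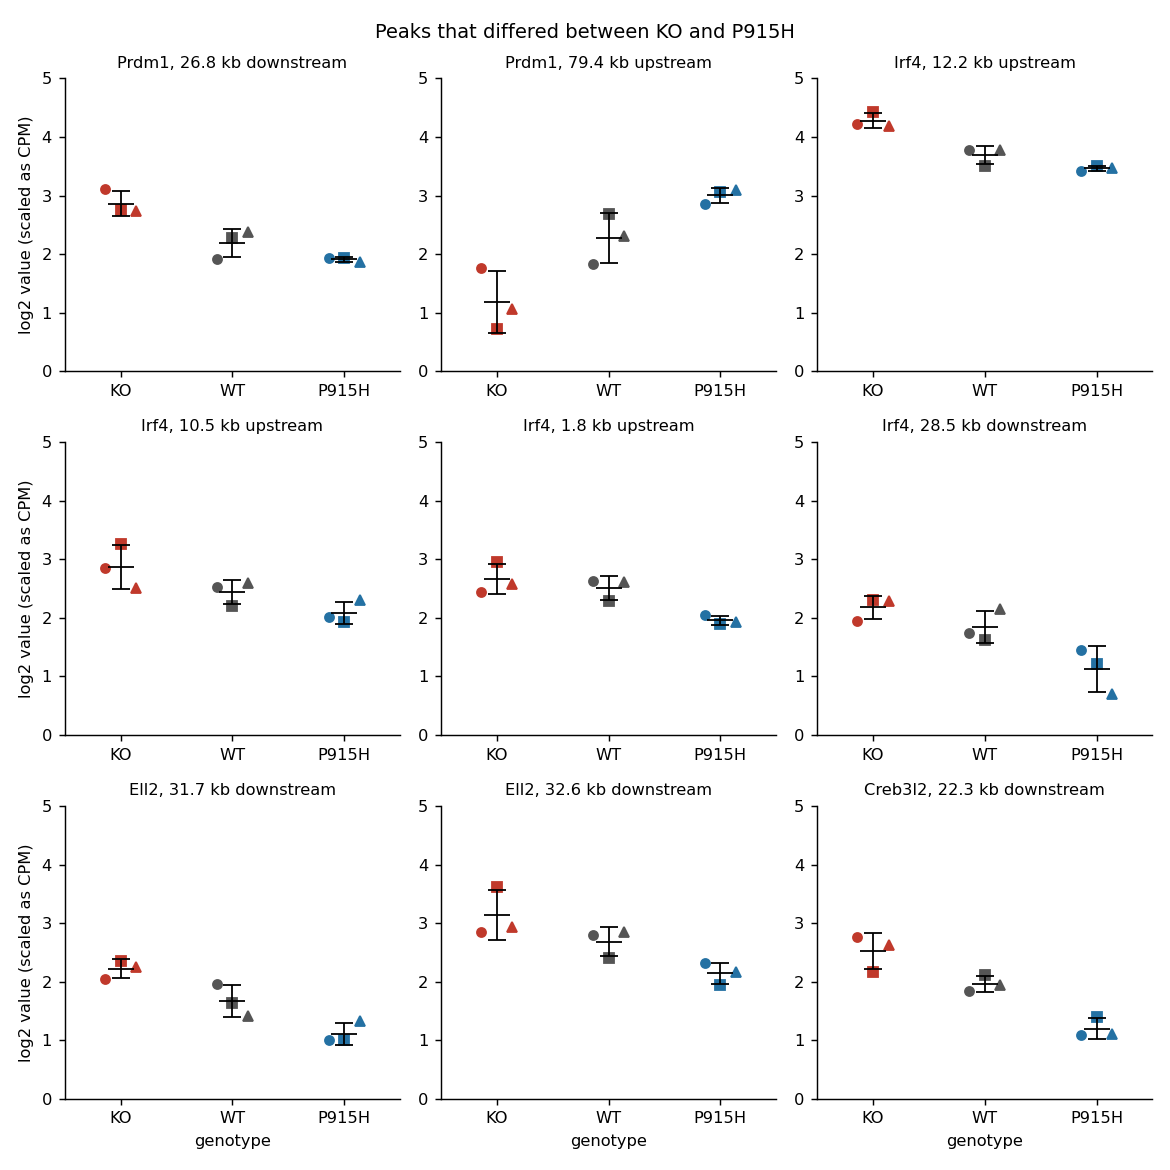
The log2 accessibility (scaled as CPM) of the 9 peaks that passed limma's test between KO and P915H is plotted by genotype. Circles, squares and triangles are replicates 1, 2 and 3, bars show the mean and SD, and titles give the distance from the RefSeq start. KO lies above P915H in every sample of 8 panels and below it at the upstream Prdm1 peak. The peaks were picked by that difference, which leaves room for the WT mean to lie between, as it does in each.

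Prdm1, whose product Blimp-1 drives the end of the B cell programme, had 1 peak that was lower in KO than in P915H and 1 that was higher. The lower one (chr10:44538128-44538311) lay 9570 bp outside the 5′ end of the body, 79380 bp upstream of the start used here. It had 1.77, 0.72 and 1.06 in KO, 2.86, 3.06 and 3.10 in P915H and 1.84, 2.69 and 2.31 in WT. The 3 genotypes did not overlap, and the order was the reverse of that at Irf4, with P915H highest. KO was 3.54-fold lower than P915H (log2 -1.82, SE 0.31, limma adjusted p = 0.00515), the widest difference between KO and P915H among the 60 peaks, and the call held without each of the 9 samples in turn.

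Its neighbour 168 bp away (chr10:44537818-44537960) was the weakest of all Prdm1 peaks and showed the same direction without passing. KO samples had 1.12, -0.62 and -0.44, P915H samples 1.11, 1.81 and 1.76 and WT samples 1.33, 2.36 and 2.23. KO replicate 1 was level with the lowest P915H sample, and the other KO samples were far below. Samples that share a replicate number are tied to the same mean at each peak. The position of KO replicate 1 is therefore not independent of the low P915H and WT values of that number. The log2 difference was -1.54 against P915H (95% interval -2.66 to -0.43, limma adjusted p = 0.0655) and -1.95 against WT (-3.07 to -0.84, limma adjusted p = 0.0853). Without KO replicate 1 these became -2.37 (limma adjusted p = 0.00239) and -2.78 (limma adjusted p = 0.00609), in fits where 16.8% and 5.43% of all peaks passed.

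The peak that was higher in KO lay beyond the 3′ end of Prdm1, 5239 bp outside the body (chr10:44431711-44431935). It had 3.11, 2.75 and 2.73 in KO, 1.94, 1.94 and 1.86 in P915H and 1.92, 2.28 and 2.38 in WT. KO stood above both other genotypes, which overlapped, and exceeded P915H by 1.94-fold (log2 0.96, SE 0.21, limma adjusted p = 0.0135). Its adjusted p was 0.0504 without KO replicate 1, 0.0622 without P915H replicate 2 and 0.056 without P915H replicate 3. Among RefSeq genes of any kind the noncoding gene Gm35028 is nearer to this peak than Prdm1.

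The other 20 peaks of Prdm1 did not pass. They included 7 that lay 70.2 to 82.9 kb outside the body, all within the noncoding gene Gm35154, with log2 differences of KO from P915H from -0.83 to 0.30. The 7 peaks in the body had differences from -0.60 to 0.18, none passing by limma and 1 with an unadjusted p under 0.05. Over its 22 peaks the median was 0.00, with 11 above 0 and 11 below. At an unadjusted p under 0.05 by limma there were 6, only 1 of them higher in KO, against 29% of all peaks. At an adjusted threshold of 0.1, 1 was higher and 4 were lower, with 22% of all peaks passing.

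Ell2 had 2 peaks that were more accessible in KO than in P915H, both inside the gene and 743 bp apart. The first (chr13:75739184-75739349, 31700 bp downstream of the start) had 2.04, 2.36 and 2.25 in KO, 1.00, 1.00 and 1.33 in P915H and 1.96, 1.63 and 1.41 in WT. The 3 genotypes did not overlap, and KO exceeded P915H by 2.15-fold (log2 1.11, SE 0.25, limma adjusted p = 0.0168). The second (chr13:75740092-75740315) had 2.85, 3.62 and 2.94 in KO, 2.31, 1.95 and 2.17 in P915H and 2.80, 2.40 and 2.85 in WT. P915H lay below the other genotypes in every sample, and KO exceeded it by 0.99 (SE 0.24, limma adjusted p = 0.0227), with KO replicate 2 the highest.

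Both Ell2 calls were likewise lost when some samples were left out. Without KO replicates 2 and 3 and P915H replicates 1 and 2, the first Ell2 peak had limma adjusted p of 0.0884, 0.0808, 0.0696 and 0.0897. The second had 0.0922, 0.0578, 0.129 and 0.065 without KO replicates 2 and 3 and P915H replicates 2 and 3, and its difference fell to 0.63 without KO replicate 2. The other 6 Ell2 peaks, among them a group of 3 past the 3′ end at 25540 to 26648 bp from the body, had differences from 0.02 to 0.28.

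Creb3l2 had 1 such peak, inside the gene 22258 bp downstream of the start, where the noncoding gene Gm33275 also lies (chr6:37419104-37419890). It had 2.76, 2.17 and 2.62 in KO, 1.09, 1.40 and 1.11 in P915H and 1.84, 2.11 and 1.95 in WT. The genotypes did not overlap, in the order KO, WT, P915H. KO exceeded P915H by 2.49-fold (log2 1.32, SE 0.24, limma adjusted p = 0.00671), and the call held without each of the 9 samples in turn. It differed from WT by 0.55 in KO (limma adjusted p = 0.253) and by -0.77 in P915H (limma adjusted p = 0.389). The other 5 Creb3l2 peaks had differences from -0.13 to 0.59.

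Xbp1 had none of its 9 peaks past limma's threshold, with 1 at an unadjusted p under 0.05. That peak (chr11:5521291-5521511), 650 bp downstream of the start, had 2.77, 2.89 and 2.94 in KO, 2.40, 2.28 and 2.52 in P915H and 2.91, 2.91 and 2.63 in WT. P915H was lowest in every sample, and KO exceeded it by 0.47 (95% interval 0.08 to 0.85, limma adjusted p = 0.0991). The differences of the 9 peaks ran from -0.17 to 0.47 and 8 of them were above 0. The peak 14506 bp upstream (chr11:5505932-5506135) had 1.98, 2.46 and 2.05 in KO, 2.02, 1.51 and 1.89 in P915H and 1.74, 1.78 and 1.81 in WT, with KO above WT by 0.38 (limma adjusted p = 0.418).

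**Figure D4:**
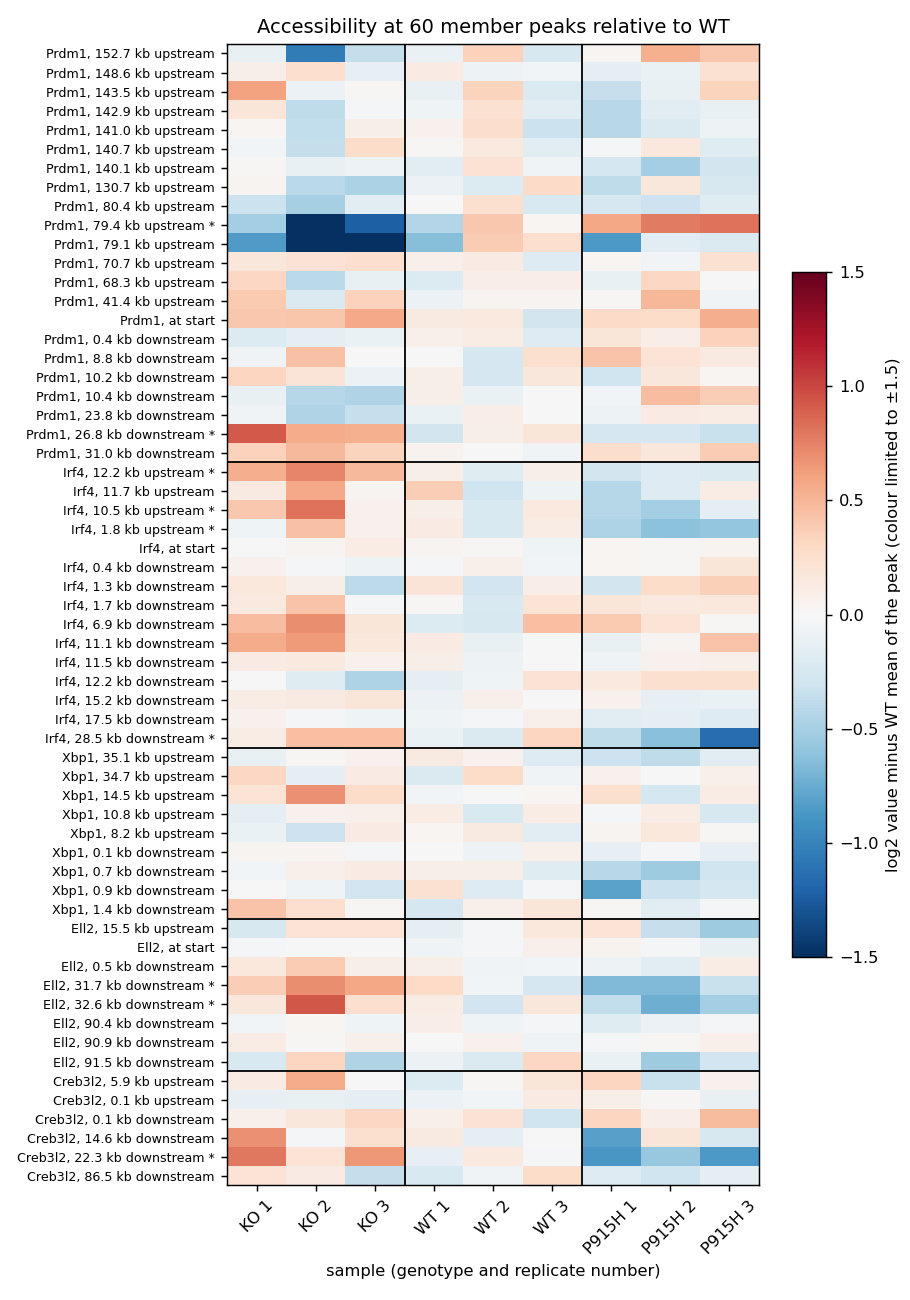
Each row is 1 of the 60 peaks, grouped by gene and ordered by distance from the RefSeq start, and each column is 1 sample. Colour is the log2 value minus the WT mean of that peak, and asterisks mark the 9 peaks that passed limma's test between KO and P915H. Pale rows at the starts of Irf4, Xbp1, Ell2 and Creb3l2 contrast with the coloured rows of the asterisked peaks, and KO replicate 1 is paler than the other KO samples at the Prdm1 peaks 79070 and 79380 bp upstream.

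No peak of the 5 genes passed against WT in either mutant. KO against WT addresses what losing the receptor changes, and 0 of 60 passed limma's test, against 0.0195% of all peaks (0.00487% higher and 0.0146% lower). At an unadjusted p under 0.05 there were 7, of which 5 were higher in KO, against 18.7% of all peaks. Without KO replicate 1, 2 of 60 passed, against 5.43% of all peaks in the same fit. Both were lower in KO and were the Prdm1 peaks 9260 and 9570 bp outside its body. The second had 1.09 less in KO than in WT with all samples (limma adjusted p = 0.105), and without that replicate fell by 1.53 (limma adjusted p = 0.0157).

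P915H against WT addresses what the substitution changes, and 0 of 60 passed by limma, against 0.255% of all peaks (0.00325% higher and 0.252% lower). At an unadjusted p under 0.05 there were 6, with 2 higher and 4 lower, against 7.72% of all peaks. The lowest adjusted p, 0.389, was at the Creb3l2 peak. P915H fell below WT in every sample at 10 of the 60 peaks and rose above it at 3, against 12% and 9.51% of all peaks. The groups were thus apart at 13 peaks, against 21.5% of all. For KO against WT, 4 peaks lay below and 10 above, against 17.5% and 14.8% (32.2% together). For KO against P915H, 6 lay below and 15 above, against 22.7% and 19.5% (42.2% together). Comparisons with WT share its samples.

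The mean over all peaks of a gene gave 1 value per gene and sample. It takes in the peaks called above, so it is not separate support for them. The 6 Creb3l2 peaks include the called one, where KO minus P915H was 1.32, and the start, where it was -0.13. The 8 Ell2 peaks include the called ones at 1.11 and 0.99. For Creb3l2 the gene mean was 3.28, 3.14 and 3.10 in KO, 2.80, 2.84 and 2.85 in P915H and 2.92, 3.01 and 3.04 in WT, and the 3 genotypes did not overlap. KO exceeded P915H by 0.35 (SE 0.09, limma adjusted p = 0.0446 over 15039 genes, of which 13.3% passed, 6.31% higher). That call was lost without each of 8 of the 9 samples, with limma adjusted p of 0.123, 0.117 and 0.0927 without KO replicates 1, 2 and 3, 0.15, 0.157 and 0.115 without P915H replicates 1, 2 and 3, and 0.0631 and 0.0687 without WT replicates 1 and 2.

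For Ell2 the gene mean was 3.83, 4.12 and 3.88 in KO, 3.65, 3.48 and 3.59 in P915H and 3.83, 3.72 and 3.84 in WT. KO exceeded P915H by 0.37 (limma adjusted p = 0.0563). For Xbp1 it was 3.25, 3.26 and 3.24 in KO, 3.05, 3.03 and 3.09 in P915H and 3.20, 3.21 and 3.16 in WT, a narrow spread with no overlap, and KO exceeded P915H by 0.19 (limma adjusted p = 0.161). For Irf4 it was 3.31, 3.45 and 3.18 in KO, 3.01, 3.03 and 3.07 in P915H and 3.16, 2.99 and 3.23 in WT (0.28, limma adjusted p = 0.137).

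These 4 genes shared the order KO, WT, P915H of their means, and KO was above P915H in all samples. Among all 15039 genes, 20.5% had every KO sample above every P915H sample, and 16.5% had this order as well. For Irf4, WT overlapped both mutants, and for Ell2 WT overlapped KO. Prdm1 had the reverse order, with 2.97, 2.61 and 2.74 in KO, 2.81, 3.00 and 3.01 in P915H and 2.83, 3.01 and 2.87 in WT. All 3 Prdm1 groups overlapped, and KO differed from P915H by -0.16 (95% interval -0.45 to 0.12). By limma, 0 of the 5 gene means passed against WT in either mutant, with 0 at an unadjusted p under 0.05, against 0.00665% of genes passing for KO and 0.253% for P915H. Over all genes, 17.8% had an unadjusted p under 0.05 for KO and 7.93% for P915H.

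**Figure D5:**
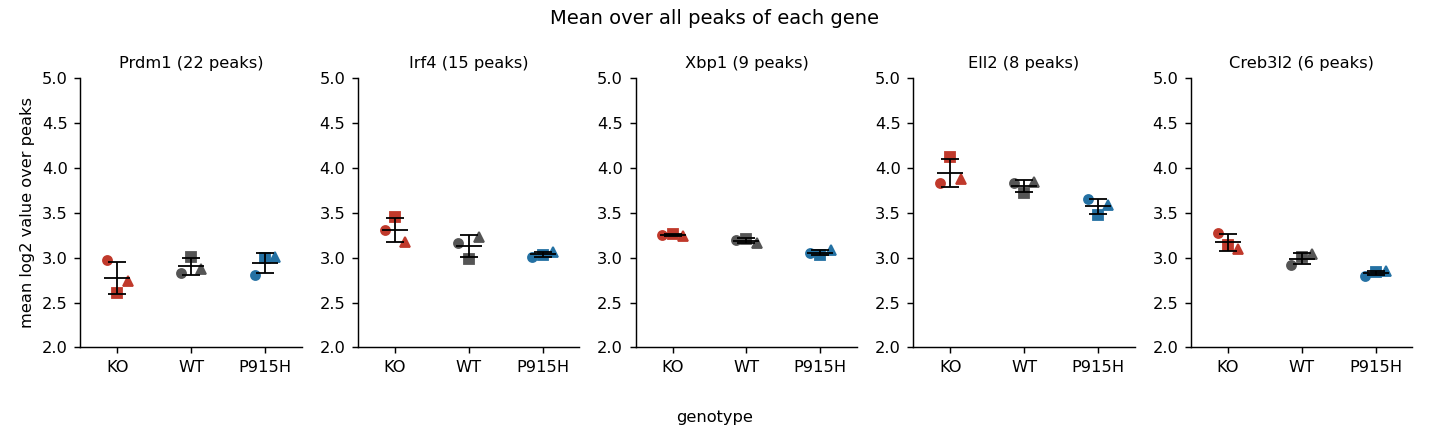
The mean log2 value over all peaks of each gene is plotted by genotype. Circles, squares and triangles are replicates 1, 2 and 3, and bars show the mean and SD. KO lies above P915H in every sample of Irf4, Xbp1, Ell2 and Creb3l2, and the groups overlap at Prdm1.

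Among 4032 other genes with at least 5 peaks, those whose mean followed each member most closely over the 9 samples were named by Pearson's r, as a description, since all values share the same libraries and 3 genotypes. For Prdm1 they were Ets1 (0.983), which encodes a factor that restrains plasma cell differentiation, and Fes (0.981). They were Prss30 (0.991) and Dnajc17 (0.988) for Irf4, Atg7 (0.994), an autophagy gene, and Arhgap10 (0.993) for Xbp1, Radil (0.989) and Pfkp (0.983) for Ell2, and Lat2 (0.98) and Lysmd4 (0.979) for Creb3l2. The mean of Ets1 was 3.49 in KO, 3.61 in P915H and 3.60 in WT. That of Atg7 was 3.01 in KO, 2.19 in P915H and 2.77 in WT, a wider range than at Xbp1.

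Other genes of the pathway were taken from lists chosen with earlier results of these data known. Over all peaks, 15.5% passed for KO against P915H, with a median of -0.01, and this is the background for each list. At an unadjusted p under 0.05 by limma that share was 29%. Repressors of the plasma cell programme and B cell identity factors (Bach2, Bcl6, Pax5, Ebf1, Spib, Irf8, Ets1 and Spi1) had 13 higher and 27 lower of 229 peaks in KO against P915H, or 17.5%, with a median of -0.06. Bcl6, the germinal centre repressor that opposes Prdm1, had 2 lower of 11, with -1.17 (limma adjusted p = 0.00412) at the peak of smallest p. Ebf1, a B lineage factor, had 7 lower and 2 higher of 52. Bach2 had 9 lower and 3 higher of 58, and Spib had 0 lower and 1 higher of 6. Irf8, a relative of Irf4, had 2 higher of 34, with 1.51 (limma adjusted p = 0.000601) at one, and Spi1, which encodes the IRF4 partner PU.1, had 0 of 5 by limma, with 1 higher at an unadjusted p under 0.05.

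Partners and co-regulators had 43 higher and 12 lower of 225 peaks (24.4%, median 0.09). Of the 43, 20 belonged to Zbtb20, a factor needed by long-lived plasma cells, which also had 3 lower of its 36 peaks. Another 12 belonged to Tcf4, which encodes the E protein E2-2 and had 1 lower of 32. Ikzf1 had 3 higher and 4 lower of 36. Ikzf3, which encodes Aiolos, had 4 higher of 17, and Batf and Pou2af1 had 0 of 7 and 0 of 5 by limma, with 1 and 0 at an unadjusted p under 0.05. Among subunits of the elongation complex in which ELL2 works, Aff1 had 1 higher and 2 lower of 25, and Cdk9 and Ccnt1 had 0 of 5 and 0 of 1 by limma, with 1 and 0 at an unadjusted p under 0.05.

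Genes of the unfolded protein response and secretion, among them targets of XBP1, had 12 higher and 0 lower of 101 peaks (11.9%, median 0.05). At an unadjusted p under 0.05 by limma, 21 were higher and 9 lower. Sec24d, a coat protein gene of vesicles leaving the endoplasmic reticulum, had 5 of the 12, with 2.69 (limma adjusted p = 0.00258) at the peak of smallest p. Eif2ak3, which encodes the stress sensor PERK, had 3 higher of 7, with 0.56 (limma adjusted p = 0.00869). Hspa5, Herpud1, Edem1 and Ern1, the gene of the enzyme that splices Xbp1 mRNA, had 0 of 2, 0 of 7, 0 of 7 and 0 of 6 by limma. At an unadjusted p under 0.05 Hspa5 had 0, Herpud1 had 1 higher and 2 lower, Edem1 had 2 lower and Ern1 had 1 in each direction.

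Plasma cell surface genes had 8 higher and 5 lower of 55 (23.6%, median 0.04). Cxcr4, a homing receptor gene, had 5 higher of 20 and Sdc1 1 of 9, at 1.21 (limma adjusted p = 0.0129), while Slamf7 had 4 lower of 9. Family relatives of the 5 genes had 3 higher and 1 lower of 74 (5.41%, median 0.04), 2 of the higher ones at Irf8, which also stands among the repressors. Ell had 1 higher of 6 peaks (0.84, limma adjusted p = 0.00383) and Ell3 1 lower of 3 (-0.74, limma adjusted p = 0.0156). Creb3l1, the closest relative of Creb3l2, had 0 of 10 by limma (2 higher and 1 lower at an unadjusted p under 0.05), and Creb3l3, Creb3l4 and Prdm16 had no peak. Against WT, the only calls by limma in these 5 lists were 1 lower peak of the repressors and 1 of the relatives, both for P915H. At an unadjusted p under 0.05, KO against WT gave 11 higher and 29 lower of 229 peaks among the repressors. Among the partners it gave 38 and 14 of 225. In the unfolded protein response and secretion it gave 11 and 2 of 101. Surface genes had 7 and 8 of 55, and relatives 7 and 4 of 74. Over all peaks the share was 18.7%, with 4430 of 11531 higher in KO. P915H against WT gave 8 higher and 8 lower, 0 and 26, 3 and 7, 1 and 8, and 1 and 3 for the same lists in that order. Over all peaks the share was 7.72%, with 1619 of 4749 higher in P915H. Both comparisons share the WT samples.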

How the data were processed

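ATAC-seq values came from age-associated B cells of 9 samples, 3 per genotype. The deposited log2 values cover 61540 peaks, and a second deposited table gives coordinates. Per the submitters' processing notes, the tools were MACS2, limma, SAMtools, Bowtie2 2.3.3, Picard 2.18.12 and Trim Galore 0.6.5, with build mm10. The normalization and the peak pooling are not given in the sources used here. Antilogs sum to 0.987 to 1.014 times the nominal CPM total.

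At each peak the mean over genotypes was equal for replicate numbers 1, 2 and 3 (largest difference 1.8e-14), so a replicate effect had been removed. The test was therefore limma 3.58.1 (R 4.3.3) on all 9 samples with genotype and replicate number, an intensity trend, two-sided, Benjamini-Hochberg over all peaks (or genes) and a threshold of 0.05. For the same reason the pairing of samples by number cannot be tested. All peaks entered the fit as deposited. Peaks were assigned with RefSeq GRCm38.p6, where all 5 genes matched. Tables and plots were made with matplotlib 3.10.9, NumPy 2.4.6, pandas 2.3.3 and Python 3.11.15.

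Peaks named were, per gene, those past the threshold, the one nearest the start, the one with the highest mean and the one with the smallest p in each comparison. Several other peaks were named after their values were seen: the Irf4 peaks at 11726 bp upstream and at chr13:30761407-30761618, the groups of peaks far from Prdm1 and Ell2. Genes named from the lists were likewise picked after their values were seen. The genes most like a member were the 2 with the highest Pearson's r. The general B cell marker list is not reported here. Members, lists and motifs were chosen with earlier results of these data known.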

Additional observations from a re-analysis of the deposited data

How the results depend on the processing

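Depth is unknown, so weak sites cannot be given a counting error, and standard errors of the difference between KO and P915H ran from 0.08 to 0.50 among the 60 peaks. Without the replicate block, whose degrees of freedom the values no longer hold, 6 of the 60 peaks passed for KO against WT and 15 for KO against P915H, and 4 gene means passed for the latter. The shares of all peaks were then 11.1% and 27.7%, and that of all gene means 26.5%. With the block the counts were 0, 9 and 1. The block changed no call for P915H against WT.

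At a threshold of 0.1, 2 peaks passed for KO against WT (4.59% of all peaks) and 14 for KO against P915H (22%), with 2 gene means (20.4% of all). Restricted to gene bodies, 3 peaks of 30 passed for KO against P915H, while 15.5% of all peaks passed wherever they lay. The share among all peaks in gene bodies was not computed, so this count has no like background. For KO against P915H, sample weights gave 2 gene means (18.8% of all), and a fit of only the 2 genotypes gave 0 (14.5%). With 1 sample left out, peaks passing numbered 0 to 2 for KO against WT and 3 to 11 for KO against P915H, and gene means 0 to 2 for the latter, where 5.24% to 17.9% of all peaks and 3.46% to 17.3% of all gene means passed. The other settings planned (quantile normalization, median centring, a minimum mean of 1, no trend, robust moderation, a window of 50 kb, nearest gene of any kind) kept each count within 1.5 times, and for P915H against WT all gave 0. The causes were not tested.

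For the 18 named peaks, 29 of 918 alternative values changed sign, all with sizes of at most 0.13 and adjusted p of 0.739 or more by limma. Quantile normalization gave 0.04 for the Ell2 start in KO against WT, and in P915H against WT 0.00 for the Irf4 start and -0.01 for the Creb3l2 start, which median centring also put at -0.01. Sample weights gave -0.01 for the Xbp1 peak at 650 bp and 0.04 for the Ell2 start in KO against WT, and -0.02 for the strongest Prdm1 peak and 0.02 for the Ell2 start in P915H against WT. Some peaks changed sign when 1 sample was left out, and for these the values over all such fits, including those of unchanged sign, ranged from -0.04 to 0.08 at the Xbp1 start, -0.06 to 0.05 at the Ell2 start, -0.07 to 0.31 at the Irf4 peak at 1769 bp and -0.09 to 0.12 at the Xbp1 peak at 650 bp in KO against WT. The same ranges were -0.13 to 0.26 at the Xbp1 peak at 14506 bp, -0.07 to 0.09 at the Creb3l2 start, -0.08 to 0.16 at the strongest Prdm1 peak, -0.09 to 0.04 at the Ell2 start and -0.02 to 0.07 at the Irf4 start in P915H against WT. The same ranges were -0.02 to 0.06 at the Irf4 start and -0.05 to 0.08 at the Ell2 start in KO against P915H.

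The Irf4 peak at 10507 bp had limma adjusted p of 0.0593 with sample weights, 0.0529 with only the 2 genotypes and 0.0608 without the trend, and the one at 1769 bp had 0.0564 with only the 2 genotypes.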
